A study of Mus musculus with 16 samples.

Results

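Toll-like receptors are the transmembrane sensors with which macrophages detect microbial lipids, proteins and nucleic acids. Expression of 10 genes of this system was examined in RAW264.7 cells, a macrophage-like mouse line. They were taken by gene symbol from the RNA-seq count table and are the 8 receptors Tlr1, Tlr2, Tlr3, Tlr4, Tlr6, Tlr7, Tlr9 and Tlr13 with 2 accessory proteins of lipopolysaccharide detection, Cd14 and Ly96. All 10 were among the 13107 genes tested, out of 55573 gene records. The 16 libraries form 4 groups of 4, all unstimulated as far as the labels say, since no ligand or phagocytic cargo is named. Parental cells carry no named construct, and the other groups are knockdowns (KD) labelled ORP5/8 KD (the lipid transfer proteins ORP5 and ORP8, products of Osbpl5 and Osbpl8), ATP11A/C KD (phosphatidylserine flippases) and CDC50A KD (the flippase subunit encoded by Tmem30a). The labels do not say whether a KD group is 1 clone, none of the groups is named as a non-targeting control, and nothing says that the 4 libraries of a group are separate cultures. The p-values therefore reflect only how these libraries vary, possibly for technical reasons. In bulk RNA, fewer cells of a kind and less RNA per cell cannot be told apart.

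At the plasma membrane, TLR2 pairs with TLR1 or TLR6 to bind bacterial lipopeptides. TLR4 binds lipopolysaccharide as a complex with the small secreted protein MD-2, the product of Ly96, after CD14 has delivered the lipid. TLR3 (double-stranded RNA), TLR7 (single-stranded RNA), TLR9 (DNA with unmethylated CpG) and TLR13 (bacterial ribosomal RNA) signal from endosomes, which they reach with the chaperone UNC93B1 and where proteases trim most of them. The adaptors MyD88 and TRIF then connect the receptors to NF-kB and to interferon regulatory factors.

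Total counts ran from 24020891 to 41543050 per library. The targeted genes did not separate the KD groups cleanly. Osbpl8 was lower than in Parental in every KD group (99.1 to 127 CPM, counts scaled to 1000000 per library with TMM factors, against 337 CPM in Parental), and Tmem30a was no lower in the libraries labelled CDC50A KD (127 CPM) than in ORP5/8 KD (130 CPM; edgeR quasi-likelihood test of the difference, adjusted p = 0.600). Atp11a had its lowest level under ATP11A/C KD (21.4 CPM; 61.4 CPM in Parental). Osbpl5 had too few counts to test. The label of CDC50A KD is therefore given as a label throughout, and every direction drawn from that group rests on it. Summed macrophage markers were lower in the KD libraries, at 5665 to 7367 CPM against 10644 to 11314 CPM in Parental, mostly through Lyz2, and the mitochondrial share of counts was higher, at 1.36% to 1.78% against 1.08% to 1.26%. Their part in the results below was not tested. Markers of B cells, neutrophils, fibroblasts and epithelium summed to under 1 CPM in every library. Those of T cells summed to 1.95 to 4.71 CPM and those of dendritic cells to 3.11 to 5.91 CPM. No count was found for 2 of 5 B cell, 3 of 5 T cell and 4 of 6 neutrophil markers. The same held for 1 of 6 dendritic cell, 4 of 6 fibroblast and 5 of 5 epithelial markers. Of the rest, 4 dendritic cell markers, 1 T cell marker and 1 fibroblast marker had counts enough to test.

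Tlr1 and Tlr6 are near-copies over part of their coding sequence, and this bears on how far their counts can be separated. On mm10 (GRCm38), with GENCODE M21, Tlr1 lies at chr5:64924679-64933563 and Tlr6 at chr5:64952031-64960097, neighbours on the minus strand. Over 910 aligned coding bases the 2 genes differ at 10, an identity of 98.9%. The 300 bases printed here, all coding and in 1 exon, show the copy, with the 3 mismatched bases in capitals. They are chr5:64925486-64925785 in Tlr1 and chr5:64953777-64954076 in Tlr6, both read on the minus strand and taken from the GENCODE M21 transcripts.
Tlr1: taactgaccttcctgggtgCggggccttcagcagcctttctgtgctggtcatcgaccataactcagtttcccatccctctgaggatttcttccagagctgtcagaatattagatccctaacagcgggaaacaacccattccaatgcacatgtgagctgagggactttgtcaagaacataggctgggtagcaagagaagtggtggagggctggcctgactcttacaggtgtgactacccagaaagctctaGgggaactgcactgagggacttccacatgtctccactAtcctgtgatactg
Tlr6: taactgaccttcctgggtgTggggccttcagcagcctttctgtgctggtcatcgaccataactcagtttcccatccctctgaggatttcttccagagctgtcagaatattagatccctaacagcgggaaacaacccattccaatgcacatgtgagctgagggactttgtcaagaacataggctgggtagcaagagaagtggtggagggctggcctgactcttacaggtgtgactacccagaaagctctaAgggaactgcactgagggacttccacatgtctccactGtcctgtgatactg

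A 100-base read that falls wholly inside an identical stretch belongs to either gene. The longest such stretch is 229 bases, and 259 of the 100-base windows occur in both genes, which is 7.89% of the windows of Tlr1 and 7.09% of those of Tlr6. These are shares of single windows. The libraries hold paired reads, and the share of read pairs that match both genes was not counted. No window of the other 8 genes occurs in another gene of the annotation's transcripts. RSEM divides such reads by estimate, and the deposited counts of Tlr1 carry decimals in 14 of 16 libraries, while the sum of Tlr1 and Tlr6 is whole in all of them and no other gene of the 10 carries decimals (tolerance 0.005). Values for Tlr1 and Tlr6 are therefore also given as a sum.

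The family did not move as 1. Tlr3, Tlr7, Tlr13 and Cd14 fell in every KD group and Tlr9 rose in every one, Tlr1, Tlr2 and Tlr4 changed in some of them, and Tlr6 and Ly96 passed the test in none. Against Parental, ORP5/8 KD had 1 gene of the 10 called higher and 5 called lower at an adjusted p under 0.05 (edgeR quasi-likelihood test with Benjamini-Hochberg adjustment over all genes). In that comparison 22.0% of all tested genes were called higher and 24.3% lower, 46.2% in all. ATP11A/C KD had 2 higher and 5 lower, where 17.4% and 20.2% of all genes were called (37.6% in all). The libraries labelled CDC50A KD also had 2 higher and 5 lower, where 24.3% and 26.1% of all genes were called (50.4% in all). The median log2 fold change of the 10 genes was -0.27, -0.20 and -0.13 in the same order, beside 0.02, 0.01 and -0.01 over all tested genes. In each KD group 7 of the 10 genes had no overlap with Parental. Of all tested genes, 44.0%, 33.3% and 48.0% had none in the same order, so full separation is common in these data. These 3 comparisons share the Parental libraries, so their likeness is no independent support. With upper-quartile scaling the part of all called genes that was higher moved from 47.5% to 63.3% in ORP5/8 KD, and Tlr6 was called higher there, which makes 2 of the 10.

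**Figure D1:**
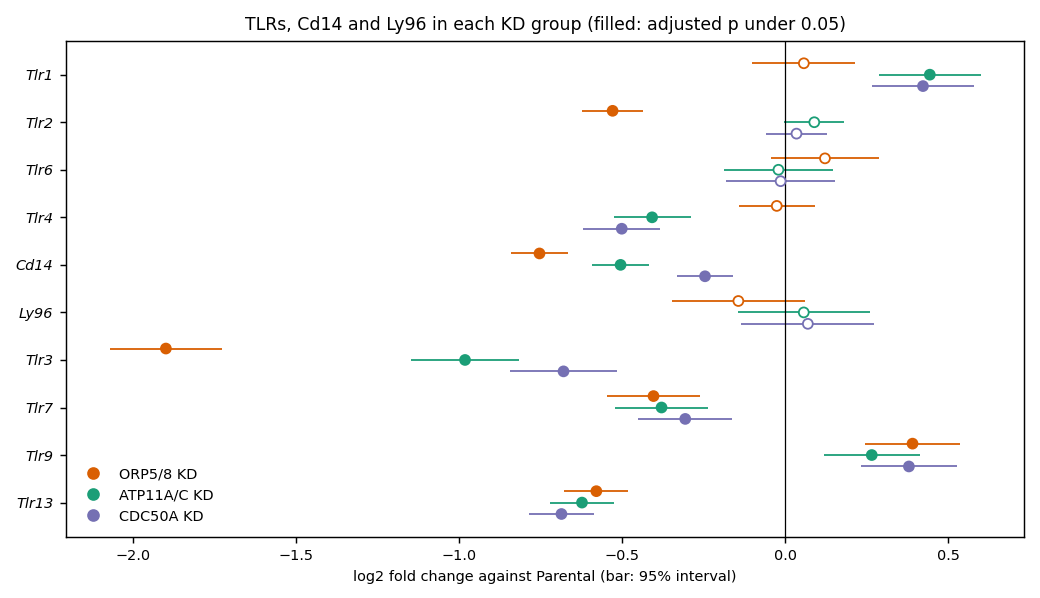
Log2 fold change of each gene against Parental (x axis) in the 3 KD groups, with 95% intervals; filled points passed an adjusted p of 0.05. Tlr3 in ORP5/8 KD, at -1.90, lies farthest from 0, and Tlr7, Tlr13 and Cd14 lie left of 0 in every group.

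Of the lipopeptide receptors, Tlr2, the shared subunit, fell in ORP5/8 KD alone of the KD groups. Tlr2 (chr3:83836272-83841767, minus strand) stood at 311, 306, 319 and 309 CPM in Parental 1 to 4. It stood at 231, 211, 214 and 206 CPM in ORP5/8 KD, below every library of the other groups. It was 311, 343, 323 and 348 CPM under ATP11A/C KD and 324, 317, 318 and 315 CPM in the libraries labelled CDC50A KD, and both groups overlapped Parental. The fold change in ORP5/8 KD was 0.69 (log2 -0.53 ± 0.0425 SE, edgeR adjusted p = 1.25e-09). In ATP11A/C KD it was 0.09 on the log2 scale (95% interval -0.00 to 0.18, adjusted p = 0.104). Tlr2 was called higher there without ATP11A/C KD 1, the library that stands farthest from its group (0.12, edgeR adjusted p = 0.0338). With upper-quartile scaling and all libraries kept it was called higher there as well (0.11, 0.0403). In CDC50A KD the log2 change was 0.04 (interval -0.06 to 0.13, adjusted p = 0.518). Compared directly, ORP5/8 KD was lower than ATP11A/C KD by a log2 change of -0.62 (adjusted p = 1.95e-10) and than the libraries labelled CDC50A KD by -0.56 (5.26e-10).

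Tlr1, a partner of TLR2 for triacylated lipopeptides, showed the other pattern. Its level was 20.7, 19.8, 19.3 and 20.7 CPM in Parental and 22.0, 20.5, 20.03 and 21.3 CPM in ORP5/8 KD. It was 24.3, 28.3, 27.7 and 29.3 CPM under ATP11A/C KD and 25.9, 31.2, 24.3 and 26.9 CPM in the libraries labelled CDC50A KD, where every library was above every Parental and ORP5/8 KD library. The log2 fold change was 0.44 ± 0.0718 under ATP11A/C KD (edgeR adjusted p = 4.34e-05) and 0.42 ± 0.0722 under the CDC50A label (5.71e-05). In ORP5/8 KD it was 0.06 (interval -0.10 to 0.22, adjusted p = 0.544). Tlr6, the partner for diacylated lipopeptides, was 18.8 ± 1.117 CPM in Parental (SD, n = 4), 20.5 ± 1.64 in ORP5/8 KD, 18.5 ± 0.349 under ATP11A/C KD and 18.7 ± 2.13 in the libraries labelled CDC50A KD. No comparison called it, with log2 changes against Parental of 0.12, -0.02 and -0.01 and interval limits from -0.19 to 0.29. It was called higher in ORP5/8 KD than in the libraries labelled CDC50A KD without ORP5/8 KD 2 (0.19, edgeR adjusted p = 0.0432) or CDC50A KD 2 (0.21, 0.0196). With upper-quartile scaling it was called higher in ORP5/8 KD than in Parental (0.20, 0.037), ATP11A/C KD (0.19, 0.0497) and CDC50A KD (0.20, 0.028).

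Summed, the pair stood at 38.9 ± 1.18 CPM in Parental, 41.4 ± 2.35 in ORP5/8 KD, 46.0 ± 1.84 under ATP11A/C KD and 45.8 ± 4.86 in the libraries labelled CDC50A KD. The sum was still called higher under ATP11A/C KD (log2 0.24, edgeR adjusted p = 0.00421) and under the CDC50A label (0.23, 0.0041), by a smaller change than that of Tlr1. Between KD groups, Tlr1 was lower in ORP5/8 KD than under ATP11A/C KD by -0.39 (adjusted p = 0.000168) and lower than under the CDC50A label by -0.37 (0.000195). The sum was lower by -0.15 (0.0591) and -0.14 (0.0572), past no threshold. The Tlr1 part of the pair's counts was 51.7% ± 1.89 in Parental, 50.6% ± 1.504 in ORP5/8 KD, 59.6% ± 2.40 under ATP11A/C KD and 59.2% ± 1.71 under the CDC50A label. Its log2 ratio to Tlr6 was higher than in Parental by 0.46 under ATP11A/C KD and 0.44 under the CDC50A label, with no overlap between groups (exact permutation test, 2-sided p = 0.0286, the smallest that 4 against 4 libraries allow; adjusted over 12 ratio tests, 0.0381). The ratio under ATP11A/C KD missed the threshold without Parental 2, 3 or 4 (0.46, 0.43 and 0.45; adjusted p = 0.0762 each). In ORP5/8 KD the ratio differed by -0.06 (exact permutation p = 0.457).

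**Figure D2:**
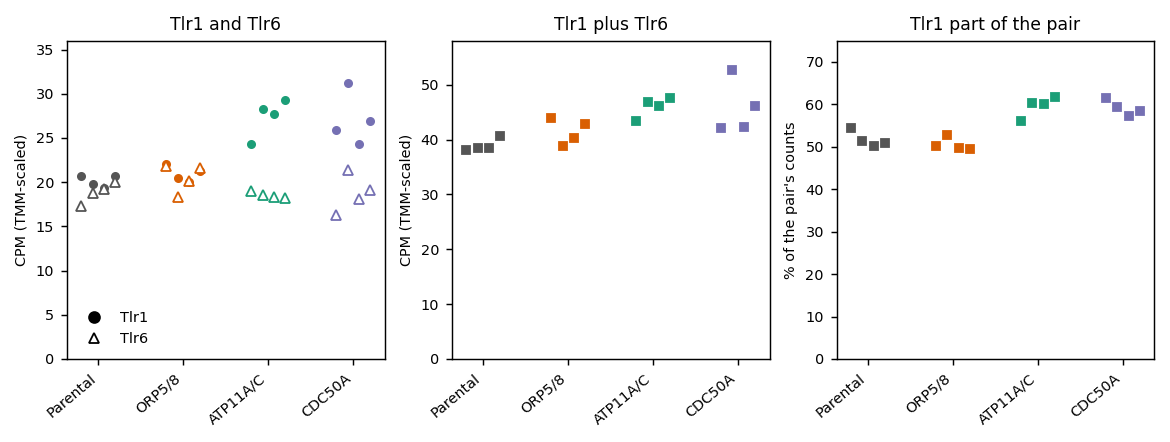
Tlr1 and Tlr6 per library in CPM (left), their sum in CPM (middle) and the Tlr1 part of the pair's counts in percent (right), with 1 point a library. Tlr1 lies above Tlr6 in each library of Parental, of ATP11A/C KD and of those labelled CDC50A KD. The Tlr1 part is 56.1% to 61.7% in ATP11A/C KD and the libraries labelled CDC50A KD, against 50.1% to 54.4% in Parental.

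In the lipopolysaccharide complex, Tlr4 fell in 2 KD groups, Cd14 fell in all 3, and Ly96 passed the test in none. Tlr4 (chr4:66827584-66930284, plus strand) was 95.2, 97.8, 102 and 106 CPM in Parental and 108, 98.9, 88.9 and 99.1 CPM in ORP5/8 KD. It was 70.2, 77.6, 75.9 and 79.2 CPM under ATP11A/C KD and 74.1, 70.9, 69.8 and 69.0 CPM in the libraries labelled CDC50A KD. The latter 8 libraries were all below the lowest Parental and ORP5/8 KD library. The log2 fold change was -0.41 ± 0.0541 under ATP11A/C KD (edgeR adjusted p = 3.45e-06) and -0.50 ± 0.0544 under the CDC50A label (1.86e-07). In ORP5/8 KD it was -0.03 (interval -0.14 to 0.09, adjusted p = 0.728). Directly compared, ORP5/8 KD was higher than ATP11A/C KD by 0.38 (7.52e-06) and than the libraries labelled CDC50A KD by 0.48 (2.65e-07).

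Cd14, the lipid-anchored protein that hands lipopolysaccharide to TLR4, was the most abundant of the 10 transcripts and fell in all KD groups in a graded way. It was 1033, 1096, 1004 and 1060 CPM in Parental and 601, 627, 657 and 603 CPM in ORP5/8 KD. It was 734, 726, 741 and 754 CPM under ATP11A/C KD and 865, 867, 920 and 884 CPM in the libraries labelled CDC50A KD. No 2 groups overlapped. The log2 fold changes were -0.75 ± 0.0398 in ORP5/8 KD (edgeR adjusted p = 1.08e-12), -0.50 ± 0.0397 under ATP11A/C KD (1.49e-09) and -0.25 ± 0.0396 under the CDC50A label (3e-05). Each step between KD groups was called as well: ORP5/8 KD was lower than ATP11A/C KD by -0.25 (3.51e-05) and than CDC50A KD by -0.51 (9.41e-10), and CDC50A KD was higher than ATP11A/C KD by 0.26 (0.000106).

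Ly96 (chr1:16688051-16709611, plus strand), whose product MD-2 makes TLR4 able to bind lipopolysaccharide, was called in no comparison. Its level was 5.97, 6.10, 6.89 and 6.09 CPM in Parental, 5.86, 5.88, 5.63 and 5.26 CPM in ORP5/8 KD, 6.58, 6.94, 6.63 and 5.86 CPM under ATP11A/C KD and 6.44, 6.74, 5.67 and 7.39 CPM in the libraries labelled CDC50A KD. The ORP5/8 KD libraries were below every Parental library. The log2 change there was -0.14 (interval -0.35 to 0.06, adjusted p = 0.222), and 0.06 and 0.07 under ATP11A/C KD and CDC50A KD (intervals -0.15 to 0.26 and -0.13 to 0.27). These intervals leave room for small changes in either direction, so equality was not shown. Without CDC50A KD 3, Ly96 was called lower in ORP5/8 KD than in the libraries labelled CDC50A KD (-0.27, adjusted p = 0.0227).

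Ratios within a library do not depend on scaling, and they separated the groups in different ways. The log2 ratio of Ly96 to Tlr4 was higher than in Parental by 0.46 under ATP11A/C KD and 0.56 under the CDC50A label (exact permutation p = 0.0286, adjusted 0.0381 for each) and differed by -0.12 in ORP5/8 KD (p = 0.2). The ratio of Cd14 to Tlr4 was lower by -0.73 in ORP5/8 KD and higher by 0.26 under the CDC50A label (exact permutation adjusted p = 0.0381 for each), and differed by -0.10 under ATP11A/C KD (p = 0.171). The Ly96 ratio under ATP11A/C KD missed the threshold without Parental 1, 2 or 4 (0.46, 0.46 and 0.42), and the Cd14 ratio under the CDC50A label without its replicate 3 (0.23), each at an adjusted p of 0.0762.

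**Figure D3:**
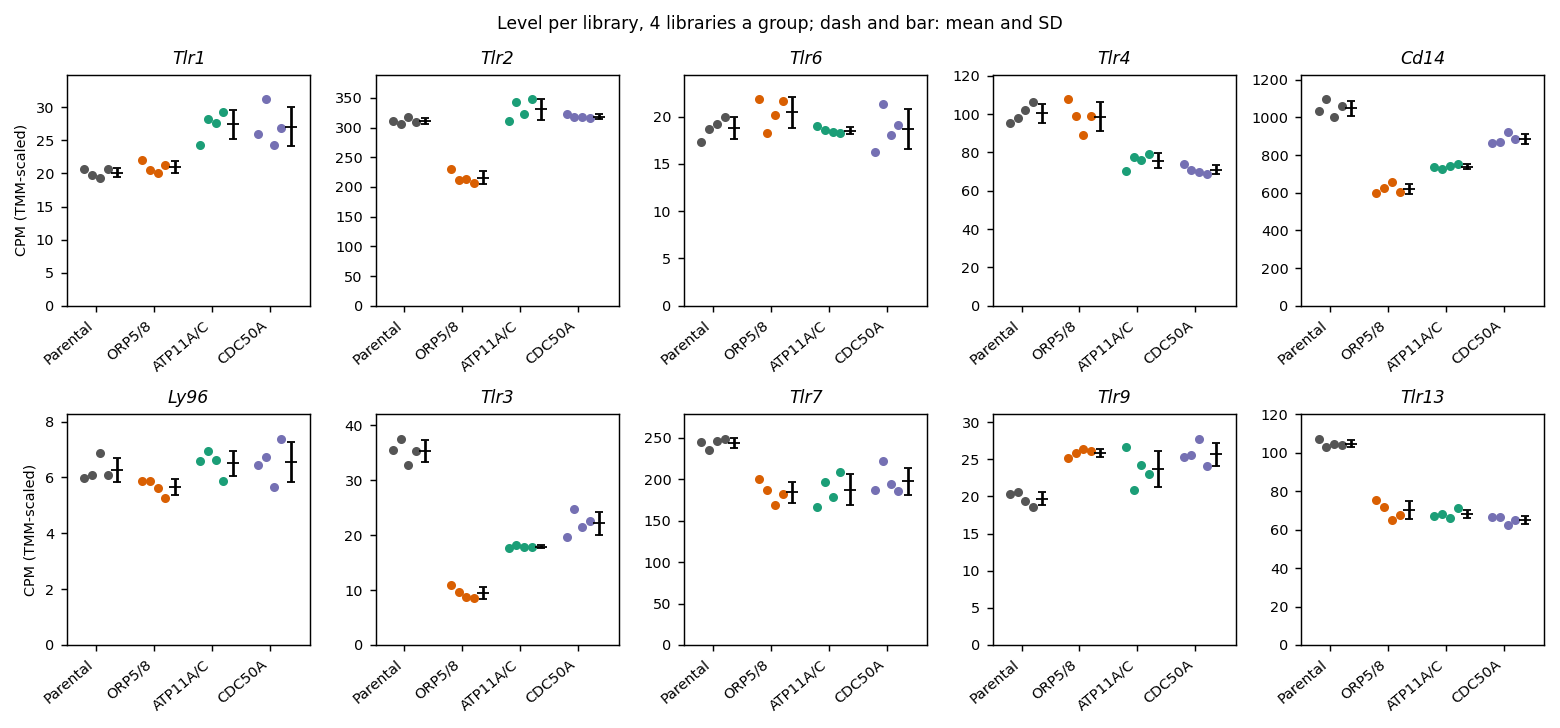
Level of each of the 10 genes in CPM (y axis, from 0) in the 4 groups, with 1 point a library and the mean ± SD beside it. The 4 groups are separate for Cd14 and Tlr3, and only ORP5/8 KD stands apart for Tlr2.

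Among the endosomal receptors, Tlr3 changed most. Tlr3 (chr8:45395665-45411080, minus strand) was 35.5, 37.6, 32.8 and 35.3 CPM in Parental. It was 10.96, 9.73, 8.68 and 8.51 CPM in ORP5/8 KD, 17.6, 18.2, 17.9 and 17.9 CPM under ATP11A/C KD and 19.6, 24.8, 21.5 and 22.6 CPM in the libraries labelled CDC50A KD. No 2 groups overlapped, and the KD means came to 26.8%, 50.7% and 62.7% of Parental. On the log2 scale the fold changes were -1.90 ± 0.0794 in ORP5/8 KD (edgeR adjusted p = 1.86e-14), -0.98 ± 0.0758 under ATP11A/C KD (1.11e-09) and -0.68 ± 0.0753 under the CDC50A label (2.44e-07). ORP5/8 KD was lower than ATP11A/C KD by -0.92 (8.12e-09) and than CDC50A KD by -1.22 (5.73e-11), and CDC50A KD was higher than ATP11A/C KD by 0.30 (0.0068). The order of the groups was that of Cd14. A predicted antisense gene, Gm45542, overlaps 381 exonic bases of Tlr3 and had 0 counts in every library.

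Tlr13 and Tlr7, both on chromosome X, fell by similar amounts in the 3 KD groups. Tlr13 (chrX:106143204-106160493, plus strand) was 107, 103, 104 and 104 CPM in Parental. It was 75.5, 71.9, 65.2 and 67.8 CPM in ORP5/8 KD, 66.8, 68.3, 65.9 and 71.0 CPM under ATP11A/C KD and 66.6, 66.6, 62.2 and 65.0 CPM in the libraries labelled CDC50A KD. Every KD library was below every Parental library, and the KD groups overlapped one another. The log2 fold changes were -0.58 ± 0.0448, -0.62 ± 0.045 and -0.69 ± 0.0453 (edgeR adjusted p = 6.84e-10, 3.73e-10 and 8.56e-11). ORP5/8 KD was called higher than CDC50A KD by 0.11 (adjusted p = 0.0497), a call that was lost without the low-count filter (0.10, 0.12) and without ORP5/8 KD 1 (0.08, 0.161), ORP5/8 KD 2 (0.10, 0.107), CDC50A KD 3 (0.10, 0.113) or CDC50A KD 4 (0.12, 0.0517).

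Tlr7 (chrX:167304929-167330558, minus strand) was 245, 236, 246 and 248.9 CPM in Parental. It was 200, 186, 169 and 182 CPM in ORP5/8 KD, 166, 197, 178 and 209 CPM under ATP11A/C KD and 187, 221, 194 and 186 CPM in the libraries labelled CDC50A KD. All KD libraries were below Parental, with a wider spread than for Tlr13. The log2 fold changes were -0.40 ± 0.066, -0.38 ± 0.0661 and -0.31 ± 0.0661 (edgeR adjusted p = 3.5e-05, 0.000104 and 0.000626), and no comparison between KD groups was called.

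Tlr9 (chr9:106222598-106226883, plus strand) was the 1 endosomal receptor gene, and the 1 gene of the 10, that rose in every KD group. It was 20.3, 20.6, 19.4 and 18.6 CPM in Parental. It was 25.1, 25.8, 26.4 and 26.1 CPM in ORP5/8 KD, 26.6, 20.9, 24.2 and 23.0 CPM under ATP11A/C KD and 25.3, 25.6, 27.8 and 24.03 CPM in the libraries labelled CDC50A KD. All KD libraries were above Parental, ATP11A/C KD 2 by the least. The log2 fold changes were 0.39 ± 0.067, 0.27 ± 0.0674 and 0.38 ± 0.0676 (edgeR adjusted p = 6.01e-05, 0.00363 and 9.04e-05). None of the differences between KD groups was called in the main fit. Without ATP11A/C KD 1, Tlr9 was called higher in ORP5/8 KD than under ATP11A/C KD (0.19, edgeR adjusted p = 0.0203). With upper-quartile scaling and all libraries kept it was called higher as well (0.18, 0.0342). The log2 ratio of Tlr9 to Tlr7 was higher than in Parental by 0.80, 0.64 and 0.69, without overlap (exact permutation p = 0.0286, adjusted 0.0381 for each).

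Between KD groups, the counts of called members lay near the shares of all genes called. ORP5/8 KD against ATP11A/C KD gave 1 higher (Tlr4) and 4 lower (Tlr1, Tlr2, Tlr3 and Cd14), where 18.2% of all genes were called higher and 20.4% lower (38.7% in all). With upper-quartile scaling 60.5% of all called genes were higher there, against 47.2% with TMM scaling, and 3 of the 10 genes were called higher. ORP5/8 KD against CDC50A KD gave 2 higher (Tlr4 and, near the threshold, Tlr13) and the same 4 lower, where 27.5% and 29.4% of all genes were called (56.8% in all), and with upper-quartile scaling the higher part of all called genes moved from 48.4% to 60.7%, with 3 of the 10 genes called higher. CDC50A KD against ATP11A/C KD gave 2 higher (Tlr3 and Cd14) and 0 lower, where 13.5% and 12.7% were called (26.2% in all). In the same order, 5, 5 and 2 of the 10 genes had no overlap between the groups, beside 32.9%, 51.0% and 22.1% of all tested genes.

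Set per kilobase of exon, Cd14 led in each group, at 605 CPM per kilobase in Parental, 359 in ORP5/8 KD, 427 under ATP11A/C KD and 510 in the libraries labelled CDC50A KD. Tlr2 and Tlr7 came next everywhere (103 and 59.7 CPM per kilobase in Parental), then Tlr13 (24.3) and Tlr4 (18.1). Tlr3 (6.78), Ly96 (6.13), Tlr1 (6.02), Tlr9 (5.67) and Tlr6 (5.05) lay close together in Parental, and the ranges of neighbours in that order overlapped. Tlr3 was sixth there and last in each KD group, at 1.82, 3.44 and 4.25 CPM per kilobase, its range overlapping that of Tlr6 only in the libraries labelled CDC50A KD. Tlr4 stood above Tlr13 in ORP5/8 KD (17.8 against 16.3), with overlapping ranges. With the longest transcript as the length, Ly96 was sixth in every group, Tlr3 was seventh in Parental and still last in each KD group, and Tlr4 was above Tlr13 under ATP11A/C KD and CDC50A KD too. The 8 receptors summed to 229 ± 2.88 CPM per kilobase in Parental, 172 ± 8.73 in ORP5/8 KD, 209 ± 11.5 under ATP11A/C KD and 207 ± 5.65 under the CDC50A label. Tlr2 made up 45.1% ± 0.503 of that sum in Parental, 41.7% ± 1.121 in ORP5/8 KD, 52.7% ± 0.339 under ATP11A/C KD and 51.2% ± 1.498 under the CDC50A label.

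**Figure D4:**
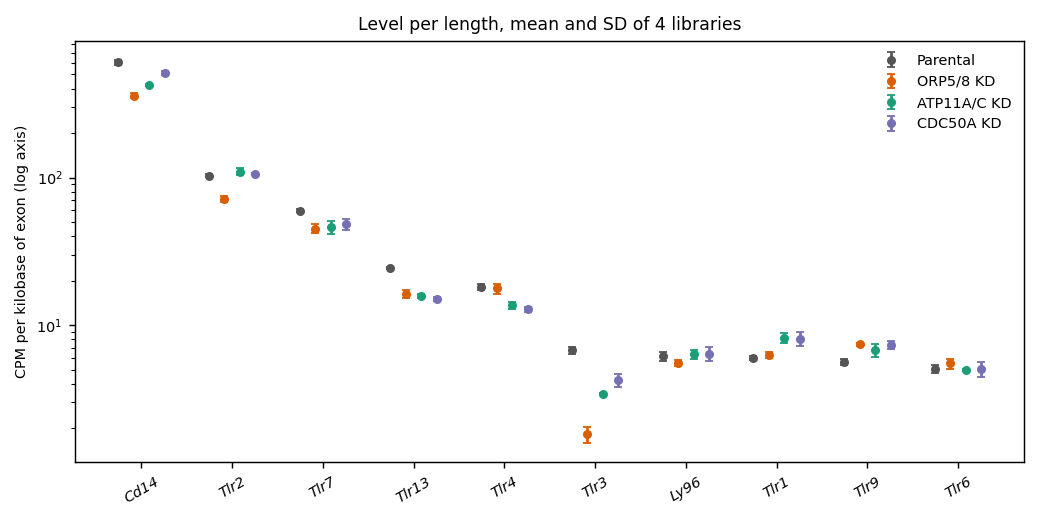
CPM per kilobase of merged exon (log axis) for each gene, ordered by the Parental mean, with mean ± SD of 4 libraries. Cd14 lies highest in every group, from 359 to 605, and Tlr3 passes from sixth place in Parental to last in each KD group.

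The upstream sequence was read where RefSeq's GRCm38.p6 promoter table held it, which was for 6 of the 10 genes (8 windows of 300 bases, from 250 before to 50 after a start). Tlr4, Tlr7, Cd14 and Ly96 have no window in it. Windows were searched on both strands for GAAA, any 2 bases and GAAA (an interferon-stimulated response element core), for GGGA, any 4 bases and CC (a kB core), and for GAGGAAG (a PU.1-type site) and TGANTCA (AP-1), which occur in 3.44%, 20.7%, 13.6% and 7.81% of all 32851 windows. Positions count from the start, with -1 the base before it, and name the first base of a match. Tlr2 held kB letters at -172 and -8. Annotated exons cover 159 of the 250 upstream bases of the Tlr2 window, and the match at -8 lies inside them. Tlr3 held kB letters at -211, -23 and -9. Tlr9 held AP-1 letters at -58 and PU.1 letters at -112 and 11, and Tlr13 held PU.1 letters at -83. Tlr1 held PU.1 letters at -23 in its window chr5:64933509-64933808, and its other window held no match. Tlr6 held a pair of interferon element matches at -116 and -110, which overlap, in its window chr5:64959117-64959416. Its other window, chr5:64959999-64960298, which spans the annotated start of the gene, held no match.

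Stretches of 3 windows are printed because these genes followed 3 different courses: Tlr2 was lower in ORP5/8 KD, Tlr9 was higher in all KD groups, and Tlr6 was called in none. Capitals mark the matched letters, and bases inside annotated exons are left out. The Tlr2 stretch is chr3:83841768-83841858 (minus strand, -250 to -160) and that of Tlr9 is chr9:106222348-106222597 (plus strand, -250 to -1). That of Tlr6 is chr5:64959167-64959416 (minus strand, -250 to -1), which lies inside the annotated gene but outside its exons.
Tlr2: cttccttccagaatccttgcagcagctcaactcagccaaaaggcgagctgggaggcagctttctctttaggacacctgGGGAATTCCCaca
Tlr9: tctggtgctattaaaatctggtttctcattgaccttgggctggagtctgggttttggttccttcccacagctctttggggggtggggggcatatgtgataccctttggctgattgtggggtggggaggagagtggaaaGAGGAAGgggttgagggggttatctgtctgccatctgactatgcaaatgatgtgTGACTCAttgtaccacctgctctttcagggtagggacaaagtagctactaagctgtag
Tlr6: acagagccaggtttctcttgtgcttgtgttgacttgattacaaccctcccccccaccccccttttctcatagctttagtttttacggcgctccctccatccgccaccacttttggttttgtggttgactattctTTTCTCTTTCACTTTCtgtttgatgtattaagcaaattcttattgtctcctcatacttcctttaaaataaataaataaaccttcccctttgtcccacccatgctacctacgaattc

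The interferon element letters thus occurred in a window of Tlr6 inside the annotated gene, and not in the window of Tlr3. That Tlr3 window, chr8:45410331-45410630, also lies inside the annotated gene, with 178 of its 250 upstream bases in exons. Sequence before the annotated start of Tlr3 at chr8:45411080 was not searched, so no contrast between these genes is drawn. A match is a description of these letters and not a bound site, and a window without one says nothing of the factor.

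The genes whose pattern over the 16 libraries was most like each member were found by the root mean square difference of centred log2 CPM, among 8495 genes with a mean of at least 10 CPM. The nearest to Tlr3 was Irgm2 (0.105), an interferon-inducible GTPase. Cd14 had Psmb10, an immunoproteasome subunit, as its nearest (0.0623), at 99.4 CPM in Parental, 57.1 in ORP5/8 KD, 73.8 under ATP11A/C KD and 84.5 in the libraries labelled CDC50A KD. The nearest to Tlr7 was Lamp2 (0.055), a lysosomal membrane protein, and to Tlr4 it was Idh1 (0.0655), the cytosolic isocitrate dehydrogenase. Tlr2 was nearest to Srek1ip1 (0.0437), Tlr9 to Cad (0.0518), Tlr13 to Slc23a2 (0.0678), Tlr1 to Il13ra1 (0.0876), Tlr6 to Scrn3 (0.0824) and Ly96 to Apip (0.0617).

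Other genes of the pathway were read from lists by role. Of 12 genes that fold, carry or cut the receptors, 9 fell and 2 rose in ORP5/8 KD, 8 fell and 2 rose under ATP11A/C KD, and 6 fell and 1 rose in the libraries labelled CDC50A KD. Over all tested genes 24.3% fell and 22.0% rose, 20.2% fell and 17.4% rose, and 26.1% fell and 24.3% rose in the same order. The list's median log2 changes were -0.23, -0.22 and -0.11. Ctss, the gene of cathepsin S, an endosomal protease, fell from 855 ± 15.7 CPM in Parental (SD, n = 4) to 531 ± 9.52, 429 ± 26.0 and 483 ± 9.62 (log2 -0.69, -0.997 and -0.82, edgeR adjusted p at most 7.31e-12). Slc15a3, an endolysosomal peptide and histidine transporter, fell from 60.4 to 27.7 CPM in ORP5/8 KD and to 48.2 under ATP11A/C KD, and was at 55.3 under the CDC50A label (adjusted p = 0.0602). Rab7b, a small GTPase of endosomal traffic, fell from 57.3 to 29.8, 43.3 and 45.0 CPM (-0.95, -0.40 and -0.35), and Ctsl, the gene of cathepsin L, fell from 291 to 259, 213 and 228 CPM (-0.17, -0.45 and -0.35). Unc93b1, the chaperone of the endosomal receptors, fell in each group, by -0.17, -0.32 and -0.34. Hsp90b1, the gene of the receptor chaperone gp96, fell in ORP5/8 KD (-0.28) and rose under ATP11A/C KD (0.12) and CDC50A KD (0.29).

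Of 22 adaptors and proximal kinases tested, 3 rose and 8 fell in ORP5/8 KD, 5 rose and 8 fell under ATP11A/C KD, and 2 rose and 7 fell in the libraries labelled CDC50A KD, where 46.2%, 37.6% and 50.4% of all genes were called. The medians of the list were -0.05, -0.06 and -0.01, close to those of all genes. Myd88, the adaptor of all TLRs but TLR3, was called in no KD group (112 ± 1.95 CPM in Parental and 106 to 119 CPM in the KD means). Ticam1, which encodes TRIF, the adaptor of TLR3, fell in ORP5/8 KD from 38.5 ± 1.63 to 28.9 ± 0.64 CPM (-0.41, adjusted p = 1.7e-05), below ATP11A/C KD by -0.37 (8.52e-05) and CDC50A KD by -0.41 (1.62e-05), where it was not called. Ikbke, a kinase that activates interferon regulatory factors, fell from 43.5 CPM to 16.3, 27.6 and 27.6 CPM (-1.42, -0.65 and -0.65), and Irak2, a kinase of the MyD88 complex, fell from 44.0 to 20.6, 32.3 and 29.2 CPM (-1.09, -0.45 and -0.59). Peli1, a ubiquitin ligase, fell from 39.8 to 21.3, 22.8 and 27.2 CPM (-0.90, -0.80 and -0.55), and Pik3ap1, an adaptor to phosphoinositide 3-kinase, fell from 191 to 121, 141 and 153 CPM (-0.66, -0.44 and -0.32).

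The transcription factors reached by these receptors had 10 of 13 genes lower in ORP5/8 KD (1 higher), 7 lower under ATP11A/C KD (1 higher) and 5 lower in the libraries labelled CDC50A KD (2 higher), with medians of -0.52, -0.21 and -0.12, where 46.2%, 37.6% and 50.4% of all genes were called in either direction. Irf7, the interferon regulatory factor downstream of TLR7 and TLR9, fell from 632 ± 18.3 CPM to 44.0 ± 3.82, 248.8 ± 14.4 and 347 ± 31.1 CPM (-3.85, -1.34 and -0.86). Relb, an NF-kB subunit, fell in ORP5/8 KD from 15.2 to 6.68 CPM (-1.19), below ATP11A/C KD by -1.09 (adjusted p = 1.26e-09) and CDC50A KD by -1.06 (1.24e-09), which stood at 14.2 and 14.0 CPM. Fos, an AP-1 subunit, fell from 33.9 to 10.9, 23.5 and 26.1 CPM (-1.63, -0.53 and -0.38). Atf3, a stress-induced factor, fell from 70.9 to 47.7, 38.1 and 32.4 CPM (-0.57, -0.90 and -1.13). Among 15 negative regulators, 9 fell and 3 rose in ORP5/8 KD, and 5 fell and 3 rose in each of the other groups, beside the same shares of all genes. Tnip3, whose product binds A20, fell from 143 to 47.6, 92.3 and 109 CPM (-1.59, -0.64 and -0.39). Nfkbia, the gene of the NF-kB inhibitor IkB-alpha, fell in ORP5/8 KD from 85.6 to 52.1 CPM (-0.72), and stood at 85.1 and 86.7 CPM in the other groups. Tnfaip3, which encodes the ubiquitin-editing enzyme A20, fell from 22.3 to 10.9, 17.8 and 15.4 CPM, while Socs3, a brake on cytokine signalling, rose from 7.66 to 15.1, 11.1 and 10.3 CPM.

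Of 16 listed targets of TLR signalling, cytokines and effector enzymes, 10 had counts enough to test. All 10 fell in ORP5/8 KD, 7 fell and 1 rose under ATP11A/C KD, and 9 fell in the libraries labelled CDC50A KD, with medians of -2.17, -1.75 and -1.57, where 46.2%, 37.6% and 50.4% of all genes were called. Acod1, which makes itaconate, fell from 48.3 ± 1.03 CPM to 3.80 ± 0.514, 6.68 ± 0.348 and 8.85 ± 1.44 CPM (-3.67, -2.85 and -2.45). Ccl5, a chemokine, fell from 11.2 ± 0.849 CPM to 0.597 ± 0.156, 1.34 ± 0.195 and 2.10 ± 0.259 CPM. The chemokine genes Ccl3 (97.6 to 31.1, 56.4 and 57.5 CPM) and Ccl4 (30.1 to 5.10, 10.3 and 9.70 CPM) fell too. The 1 gene that rose was Ptgs2 under ATP11A/C KD, from 9.40 to 12.1 CPM (0.36, adjusted p = 0.00662); it encodes an inducible cyclooxygenase. Il6 and Il12b had at most 2 counts in a group, so these cells showed next to no transcript of either.

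**Figure D5:**
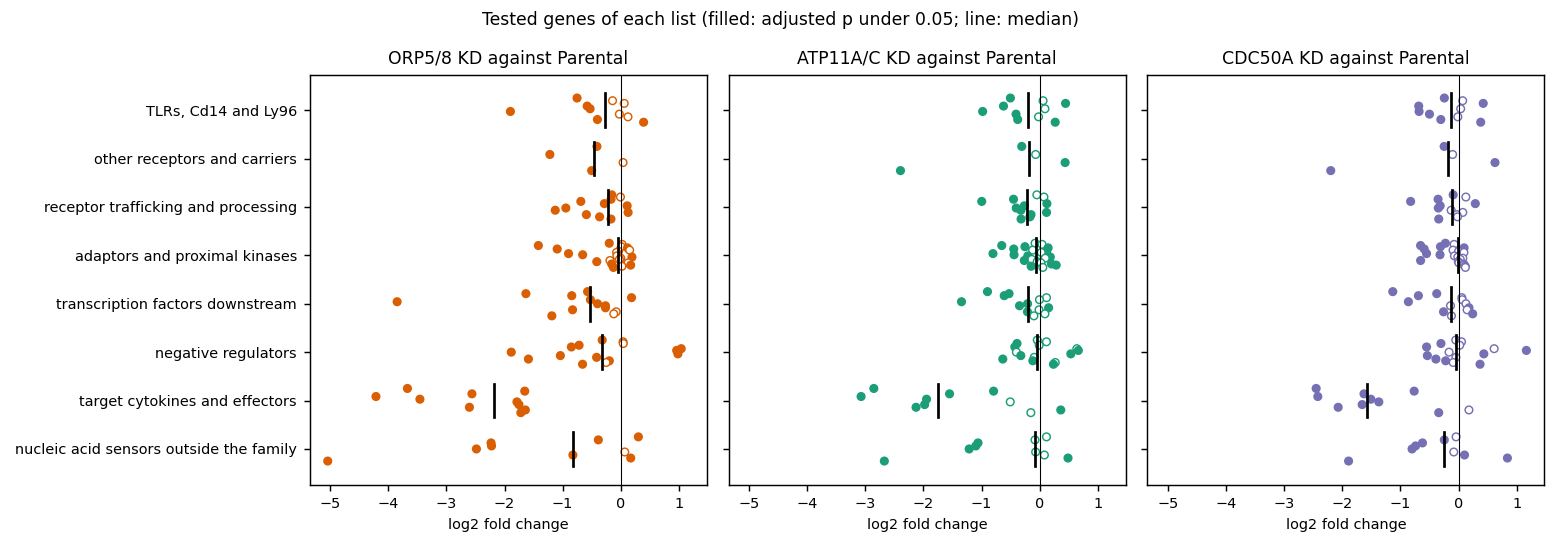
Log2 fold change against Parental (x axis, the same in each panel) of the tested genes of each list in the 3 KD groups; filled points passed an adjusted p of 0.05 and vertical lines are medians. The target list lies farthest left, with medians of -2.17, -1.75 and -1.57, against -0.27, -0.20 and -0.13 for the receptors with Cd14 and Ly96.

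The 9 tested sensors of nucleic acids outside the family can be set beside Tlr3. In ORP5/8 KD 6 fell and 2 rose, under ATP11A/C KD 4 fell and 1 rose, and in the libraries labelled CDC50A KD 5 fell and 2 rose, where 46.2%, 37.6% and 50.4% of all genes were called. Ifih1, the gene of MDA5, a cytosolic sensor of double-stranded RNA, fell from 119 ± 1.07 CPM to 21.3 ± 0.388, 51.4 ± 3.22 and 68.4 ± 3.16 CPM (-2.48, -1.21 and -0.80), and Ddx58, the gene of RIG-I, fell by -2.23, -1.06 and -0.62. Dhx58, the gene of the related LGP2, fell from 117 to 25.1, 54.7 and 70.1 CPM (-2.22, -1.10 and -0.74), and Zbp1, whose product binds left-handed nucleic acid helices, fell from 37.8 to 1.15, 5.93 and 10.2 CPM (-5.04, -2.67 and -1.89). Tmem173, the gene of the DNA-response adaptor STING, rose by 0.17, 0.49 and 0.84 (edgeR adjusted p = 0.015, 3.43e-07 and 6.88e-11).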

How the data were processed

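RNA of 16 libraries was sequenced as paired 100-base reads from TruSeq Stranded mRNA libraries, per the labels' protocols. The submitters' processing notes name Trim Galore 0.5.0, STAR 2.7.5a, RSEM and the build mm10. The values the authors deposited are RSEM expected counts per gene, here rounded to whole counts. RSEM shares out reads that match several genes, which bears on Tlr1 and Tlr6. The 92 ERCC records hold 0 counts and were left out.

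Libraries were grouped by their labels. Parental 3 was matched by library name, since the number before that name differs between label and table. Genes were kept by filterByExpr (minimum count 10), scaled by TMM and fitted over all 16 libraries, 1 term a group, by edgeR's quasi-likelihood method (version 4.0.16, R 4.3.3). P-values were adjusted by Benjamini-Hochberg within each comparison over 13107 genes, with calls made at an adjusted p under 0.05. CPM values are TMM-scaled. Standard errors come from the estimate and its F statistic, and 95% intervals use 12 degrees of freedom. Total counts of 24020891 to 41543050 leave 154 to 290 counts per library for Ly96, the lowest of the 10 genes in CPM, whose log2 changes against Parental have standard errors of 0.0929 to 0.0936, against 0.0396 to 0.0398 for Cd14. Log2 ratios of counts (0.5 added) were compared by exact permutation, 12 tests. Coordinates, lengths and exons are from GENCODE M21, and promoters from RefSeq on GRCm38.p6.

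The genes and lists were chosen with earlier results of these data known. Outside the members, the text names up to 4 genes a list with the smallest adjusted p in any comparison with Parental, and the nearest gene in pattern to each member. Unc93b1, Hsp90b1, Myd88, Ticam1, Tmem173, Ptgs2, Il6 and Il12b were chosen after their values were seen. Alternatives were DESeq2 size factors, upper-quartile scaling, other filters, a replicate block, a fit to only the groups compared, DESeq2 1.42.0, a ratio prior of 2 counts, the longest transcript, leaving out each library and, chosen after seeing the data, Tlr1 and Tlr6 summed.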

Additional observations from a re-analysis of the deposited data

Results flagged for a closer look

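Of the 40 sets of 4 libraries (10 genes in 4 groups), 1 had a library far from the others: Ly96 in Parental 3 stood at 6.89 CPM, against 5.97 to 6.10 CPM in the other 3 Parental libraries. Its gap to the nearest library exceeded Dixon's 95% critical value for 4 libraries. Chance gives about 1 such set in 20, and Ly96 was called in no comparison with Parental when Parental 3 was left out.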

How the results depend on the processing

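Over 60 pairs of gene and comparison and 912 alternative values, 7 calls were lost in 3 pairs, 10 were gained in 6 pairs, and 28 uncalled values took the other sign. The changes of Tlr3, Tlr7, Tlr9, Tlr13 and Cd14 against Parental in all KD groups, of Tlr2 in ORP5/8 KD, and of Tlr1 and Tlr4 in ATP11A/C KD and CDC50A KD kept direction and call under every alternative run. Genes of the 10 called higher went from 1 to 2 (ORP5/8 KD against Parental) and from 1 to 3 (against ATP11A/C KD) with upper-quartile scaling, and from 2 to 1 (against CDC50A KD) without the low-count filter. Leaving out 1 library gave 1 to 2 higher for ORP5/8 KD against ATP11A/C KD (2 without ATP11A/C KD 1) and 1 to 3 against CDC50A KD. The cause was not tested. Read as the sum with Tlr1, Tlr6 turned from an uncalled -0.02 to 0.24 in ATP11A/C KD (edgeR adjusted p = 0.00421) and from -0.01 to 0.23 in CDC50A KD (0.0041), which the sum fixes by its construction. Leaving out 1 library moved the log2 ratio of Cd14 to Tlr4 in CDC50A KD over 0.23 to 0.29. In ATP11A/C KD it moved that of Ly96 to Tlr4 over 0.42 to 0.53 and that of Tlr1 to Tlr6 over 0.42 to 0.53. The adjusted p of these ratios (exact permutation) ran up to 0.0762.

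Same-numbered libraries of different groups correlated at a mean r of 0.01 over 24 pairs (-0.12 to 0.11), short of the r over 0.1 in every pair that pairing required, so the numbers were not taken to pair them. A hint from the data, not the design, is that 8 of 16 libraries correlated best with their own number, where 4 would by chance. With the replicate number as a block, 5961, 4810 and 6484 genes were called against Parental, in place of 6059, 4926 and 6605, and the counts among the 10 genes stayed 1 and 5, 2 and 5, and 2 and 5.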

Other observations

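Receptors outside the 10 genes added to the picture. Tlr8, a neighbour of Tlr7 on chromosome X (chrX:167242696-167264329) whose product also senses RNA in endosomes, was 4.68, 5.26, 4.98 and 4.37 CPM in Parental and 3.97, 3.43, 2.68 and 3.54 CPM in ORP5/8 KD. It was 0.816, 1.14, 0.744 and 0.992 CPM under ATP11A/C KD and 0.695, 1.31, 0.888 and 1.35 CPM in the libraries labelled CDC50A KD, with no overlap between those 8 libraries and the rest. The log2 fold change was -0.50 ± 0.161 in ORP5/8 KD (edgeR adjusted p = 0.0146), -2.39 ± 0.187 under ATP11A/C KD (1.37e-09) and -2.20 ± 0.187 under the CDC50A label (4.86e-09), and ORP5/8 KD was higher than ATP11A/C KD by 1.89 (6.11e-08). The order of the groups thus differed from that of Tlr3 and Cd14, which were lowest in ORP5/8 KD.

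Cd180, a receptor without a signalling domain that resembles TLR4, and Ly86, whose product MD-1 pairs with it as MD-2 does with TLR4, moved in opposite directions. Cd180 fell from 179 ± 4.56 CPM in Parental (SD, n = 4) to 135 ± 5.10 in ORP5/8 KD, 145 ± 11.1 under ATP11A/C KD and 151 ± 5.55 in the libraries labelled CDC50A KD (log2 -0.41, -0.31 and -0.25, edgeR adjusted p = 4.84e-07, 3.14e-05 and 0.000247). Ly86 rose from 100 ± 3.62 CPM to 136 ± 9.46 under ATP11A/C KD (0.44, adjusted p = 1.94e-07) and to 155 ± 6.02 under the CDC50A label (0.63, 7.56e-10), and was at 103 ± 1.19 CPM in ORP5/8 KD (0.04, 0.538). Cd36, a scavenger receptor that assists TLR2 with TLR6, fell in ORP5/8 KD from 85.0 ± 1.52 to 36.5 ± 2.75 CPM (-1.22, adjusted p = 4.26e-12), below ATP11A/C KD by -1.15 (2.77e-11) and CDC50A KD by -1.12 (2.65e-11), and stood at 81.0 ± 8.38 and 79.2 ± 6.59 CPM in those groups. Tlr11, Tlr12 and Lbp had 0 counts in every library, and Tlr5 had 2 counts in 1 Parental library.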
